A study of Mus musculus with 3 samples.

Results

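The CDR3s described here are those of the TCR beta chain that carried a cysteine in their interior. The CDR3 is the loop of the TCR that lies over the peptide held by an MHC molecule. It is made where a V, a D and a J gene are joined, with bases trimmed and added at both joints, so it differs from one T-cell clone to the next. It opens with a conserved cysteine of the V gene, counted here as position 1, and ends with a conserved phenylalanine of the J gene. A CDR3 was taken as a member when its sequence was in frame, without a stop codon, and held a further cysteine at any position from 5 to its length minus 4. The outermost residues were thus left out, while the ends of the V and J genes still fix part of the places inside this window. There were 154 such clonotypes among 156729 in-frame TCR beta clonotypes summed over 3 libraries. The members comprised 149 distinct combinations of nucleotide CDR3, V gene and J gene among 143731 distinct ones.

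Splenic CD4, CD8 and double negative (DN) T cells had been sorted from 1 MRL.lpr mouse aged 16 weeks, with mRNA of 1000000 cells for each subset. MRL.lpr is a lupus-prone strain whose lpr mutation disables Fas, a death receptor of lymphocytes, and all 3 subsets carried it. DN T cells bear the αβ TCR but neither CD4 nor CD8, and the study asked whether they arise from self-reactive CD8 T cells. Each subset had 1 library, so each test compares libraries and not subsets, and there is no spread between mice. The tables list TCR sequences only, so the sorted subsets could not be checked against marker genes.

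A free cysteine in the middle of the CDR3 is known from work on thymic selection as a mark of strong self-reactivity. Thymocytes with such receptors are mostly deleted or diverted into unconventional lineages such as intraepithelial lymphocytes. In the standard code cysteine is written TGT or TGC, next to the stop codon TGA and to TGG, the only codon of tryptophan.

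The 4 distinct members found in more than 1 library are shown first, with a pair of others that were among the 5 with the most reads of their library. Each is the nucleotide CDR3 from 5′ to 3′, with the codon of the interior cysteine in capitals.
TRBV5 and TRBJ2-7, cysteine at position 11 of 15: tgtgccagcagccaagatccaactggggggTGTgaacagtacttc
TRBV1 and TRBJ1-4, cysteine at position 7 of 12: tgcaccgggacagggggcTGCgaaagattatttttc
TRBV2 and TRBJ2-3, cysteine at position 10 of 16: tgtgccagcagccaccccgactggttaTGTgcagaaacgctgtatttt
TRBV31 and TRBJ2-7, cysteine at position 10 of 14: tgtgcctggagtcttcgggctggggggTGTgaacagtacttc
TRBV5 and TRBJ2-7, cysteine at position 7 of 15: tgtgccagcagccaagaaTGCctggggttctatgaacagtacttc
TRBV19 and TRBJ1-2, cysteine at position 8 of 13: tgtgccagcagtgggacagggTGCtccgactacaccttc

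Interior cysteine was rare in all 3 libraries. CD4 T cells had 36 members among 41301 in-frame clonotypes, which is 0.0872% (0.063 to 0.121%, 95% Wilson interval). CD8 T cells had 65 among 77240, or 0.0842% (0.066 to 0.107%). DN T cells had 53 among 38188, or 0.139% (0.106 to 0.181%). About 1 in 1147 clonotypes of CD4, 1 in 1188 of CD8 and 1 in 721 of DN T cells was thus a member.

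The share of clonotypes was 1.65-fold higher in DN than in CD8 T cells (95% interval of the ratio 1.15 to 2.37, two-sided Fisher's exact test, adjusted exact p = 0.024 over 3 pairs). Against CD4 T cells the ratio was 1.59 (1.04 to 2.43), which did not pass the threshold of 0.05 (adjusted exact p = 0.0502). CD4 and CD8 T cells had a ratio of 1.04 (0.689 to 1.56, adjusted exact p = 0.917). The difference between DN and CD8 T cells did not pass among clonotypes with at least 2 reads, where 7 of 16143, 8 of 24564 and 8 of 17184 clonotypes of CD4, CD8 and DN T cells were members. There the DN to CD8 ratio was 1.43, against 1.65 over all clonotypes, from 8 members on each side (adjusted exact p = 0.919). The DN to CD4 ratio was 1.07 there, against 1.59 over all clonotypes, and did not pass. Among clonotypes with exactly 1 read the shares were 0.115%, 0.108% and 0.214% in the CD4, CD8 and DN libraries.

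**Figure D1:**
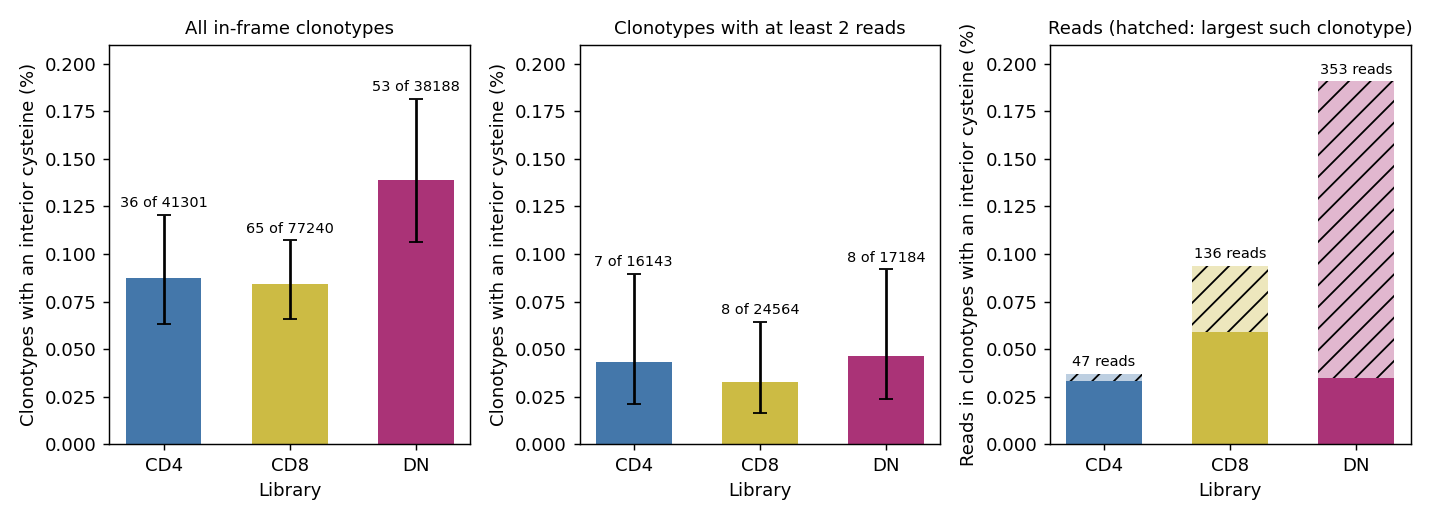
Share of in-frame clonotypes with an interior cysteine in each library (left, all clonotypes, and middle, those with at least 2 reads; bars with 95% Wilson intervals) and share of in-frame reads they held (right, in percent, with the largest such clonotype hatched). DN T cells had the highest share of clonotypes at 0.139% and of reads at 0.191%, and 289 of the 353 DN reads came from the hatched clonotype.

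By reads, the libraries stood further apart. Members held 47 of 126738 in-frame TCR beta reads in CD4 T cells (0.0371%), 136 of 145225 in CD8 T cells (0.0936%) and 353 of 185135 in DN T cells (0.191%). All 3 pairs differed by Fisher's exact test on reads, with adjusted p of 2.87e-13 for DN against CD8, 1.17e-36 for DN against CD4 and 7.21e-09 for CD4 against CD8 T cells. Every test on reads in this paragraph takes PCR copies as independent, which they are not. Their p-values can therefore be far too small. The place of DN T cells in this order rested on 1 clonotype. When the largest member of each library was left out, the share of the remaining reads was 0.0331%, 0.0592% and 0.0346% in the CD4, CD8 and DN libraries. The DN to CD8 ratio then turned from 2.04 to 0.584 (adjusted exact p = 0.00275), and the DN to CD4 ratio fell from 5.14 to 1.04 (adjusted exact p = 0.844). The CD4 to CD8 ratio kept its direction, at 0.396 with all members and 0.559 without the largest (adjusted exact p = 0.00275).

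The largest member was the same in every library. It joined TRBV5, TRBD2 and TRBJ2-7 and had its cysteine directly before the last 4 residues. Its reads numbered 5 in the CD4, 50 in the CD8 and 289 in the DN library, so it was low in CD4, intermediate in CD8 and high in DN T cells. These were 0.00395% of in-frame reads in CD4 (0.00169 to 0.00924%), 0.0344% in CD8 (0.0261 to 0.0454%) and 0.156% in DN T cells (0.139 to 0.175%). The DN share exceeded the CD8 share 4.53-fold and the CD4 share 39.6-fold. It ranked 40th by reads among in-frame clonotypes of DN T cells and 76th in CD8 T cells, and was the only member within the 100 largest clonotypes of any library. No in-frame clonotype with the same V and J gene differed from it by 1 base in any library. A clonotype's reads follow both the number of its cells and their TCR mRNA, which cannot be told apart in these data.

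The next largest joined TRBV1, TRBD1 and TRBJ1-4, with the cysteine beside the middle of the loop, at position 7 of 12. It held 17 reads in CD8 and 3 in DN T cells, and it had none of the 126738 reads in CD4 T cells, which allows a share of up to 0.00237%. It was the second largest member of CD8 T cells and stood 361st among all their in-frame clonotypes. Its DN to CD8 ratio was 0.138, the opposite direction to that of the TRBV5 clonotype. The DN library also held a second nucleotide version of the same amino acid CDR3, with 1 read.

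The other members with more than 2 reads were all in the CD4 or the DN library. The clonotype of TRBV2 and TRBJ2-3 had 4 reads in DN and 1 in CD8 T cells. A second clonotype of TRBV5 and TRBJ2-7, with the cysteine at position 7, had 4 reads in DN T cells and was listed in no other library. The clonotype of TRBV19 and TRBJ1-2 had 3 reads and was found in CD4 T cells only. The clonotype of TRBV31 and TRBJ2-7 had 2 reads in DN and 1 in CD4 T cells. No remaining member had over 2 reads in any library.

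Most members were seen once. In CD4 T cells 29 of 36 members (80.6%, 65 to 90.2%) had 1 read, against 60.9% of the other in-frame clonotypes (adjusted exact p = 0.0161, Fisher's exact test, 3 libraries). In CD8 T cells 57 of 65 did (87.7%, 77.5 to 93.6%), against 68.2% (adjusted exact p = 0.000653). In DN T cells 45 of 53 did (84.9%, 72.9 to 92.1%), against 55% (adjusted exact p = 1.62e-05). The single-read share was thus higher among members than among other clonotypes in all 3 libraries, by 1.32-, 1.29- and 1.54-fold. Members held a mean of 1.31, 2.09 and 6.66 reads in the CD4, CD8 and DN libraries, against 3.07, 1.88 and 4.85 reads for other in-frame clonotypes, so the mean was higher for members in CD8 and DN T cells. Without the largest clonotype of either kind, members held a mean of 1.2, 1.34 and 1.23 reads and others 3.03, 1.84 and 4.81.

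**Figure D2:**
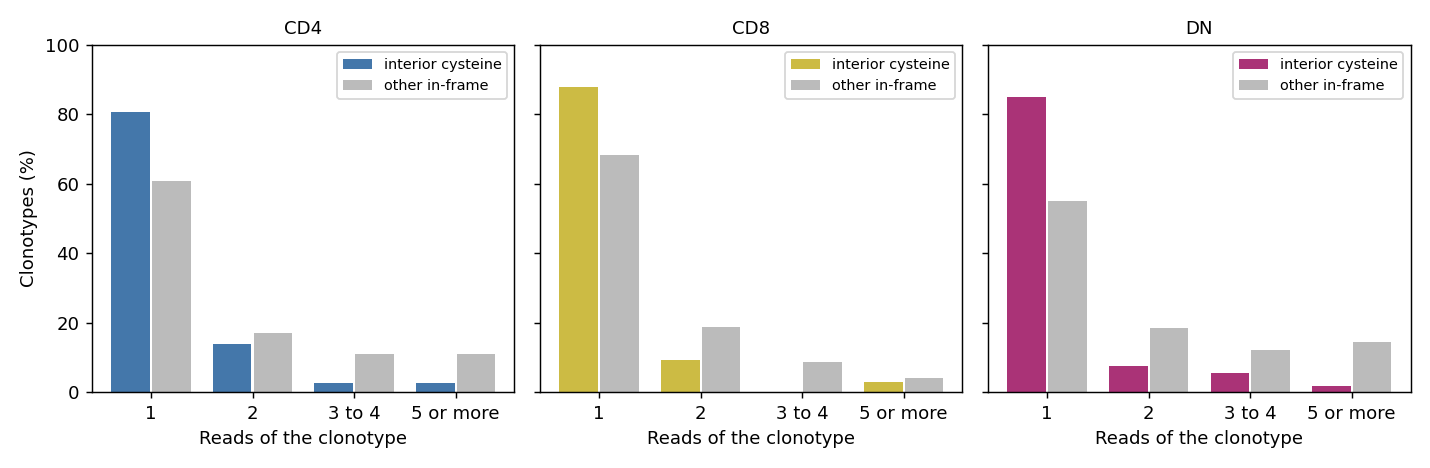
Percent of clonotypes with 1, 2, 3 to 4 and 5 or more reads, for clonotypes with an interior cysteine (coloured) and the other in-frame clonotypes (grey) of each library. The single-read bar is taller for cysteine clonotypes in all 3 libraries, at 80.6%, 87.7% and 84.9%, and 1 CD4, 2 CD8 and 1 DN clonotype with cysteine reached 5 reads.

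Cysteine was the rarest of the 20 residues at interior positions in each library. The next rarest, methionine, was present in 1.22% of CD4, 1.37% of CD8 and 1.21% of DN clonotypes. Tryptophan, whose codon is 1 base from either cysteine codon, was present in 12.3% of CD4, 15.5% of CD8 and 27.8% of DN clonotypes. Clonotypes with tryptophan thus outnumbered those with cysteine by 141-, 184- and 201-fold.

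Comparing the same 20 residues between libraries, most differed: 80% passed adjusted p of 0.05 between DN and CD8, 70% between DN and CD4 and 80% between CD4 and CD8 T cells. A call for any 1 residue therefore stood against a high background. Tryptophan had the highest ratio of DN to CD8 (1.80) and of DN to CD4 T cells (2.27), and cysteine was next in both pairs. In this family of 20 tests cysteine passed in DN against CD8 (adjusted exact p = 0.0107) and in DN against CD4 (adjusted exact p = 0.0478), where the same difference over the 3 pairs alone gave 0.0502. The lowest ratios were those of threonine for DN over CD8 (0.875) and glutamine for DN over CD4 (0.755). Between CD4 and CD8 T cells glutamine had the highest ratio (1.20) and phenylalanine the lowest (0.780), and cysteine did not pass (adjusted exact p = 0.941).

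**Figure D3:**
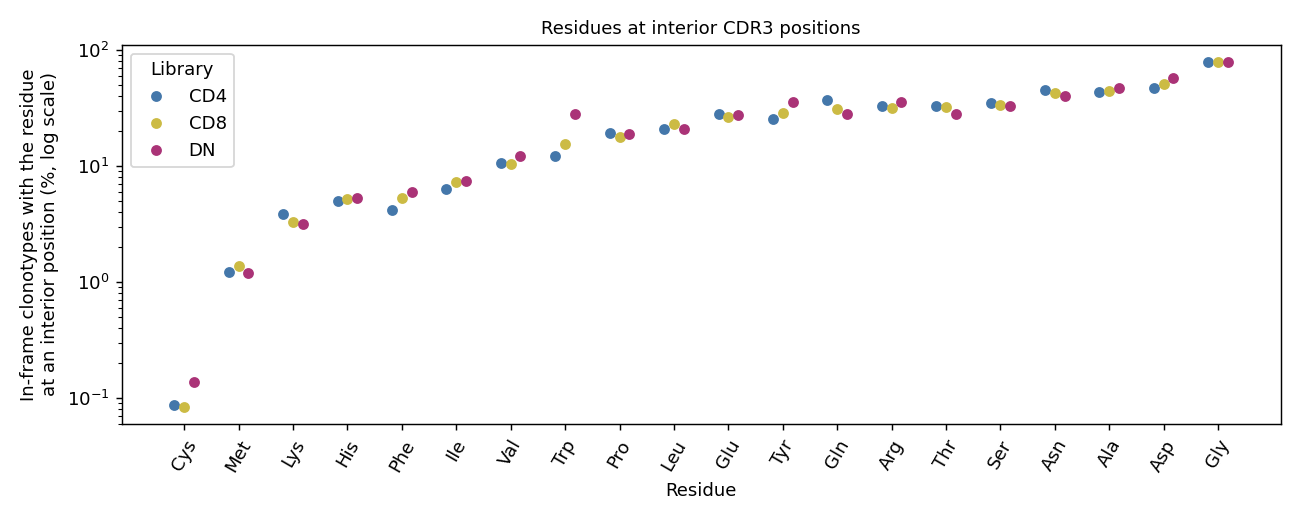
Percent of in-frame clonotypes of each library (log scale) that held each residue at an interior CDR3 position, with residues ordered by their share in CD8 T cells. Cysteine lies at about 0.1%, far below methionine at 1.21 to 1.37%, and the DN point stands above the other 2 for cysteine and for tryptophan.

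The cysteine could lie on either side of the loop's middle, since the positions counted were symmetrical about it. It lay after the middle, towards the J gene, in 24 of 36 members of CD4 T cells, 38 of 65 of CD8 and 36 of 53 of DN T cells. It lay before the middle in 10, 23 and 16. The median cysteine stood 1, 0.5 and 1 residue past the middle in the CD4, CD8 and DN libraries.

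A central cysteine, at most 1 residue from the middle, was found in 11 of 36 members in CD4 T cells (30.6%, 18 to 46.9%). It was found in 29 of 65 in CD8 T cells (44.6%, 33.2 to 56.7%) and in 20 of 53 in DN T cells (37.7%, 25.9 to 51.2%). No pair of libraries differed in this share by Fisher's exact test, each with an adjusted p of 0.507. The DN to CD8 ratio was 0.846 (0.545 to 1.31), which leaves room for a difference in either direction. The TRBV5 clonotype with 289 reads was not central, with its cysteine 3 residues past the middle, while the TRBV1 clonotype was.

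The positions nearest the ends of the window held many members. In the CD4, CD8 and DN libraries 20, 27 and 20 members had the cysteine at position 5 or 4 residues before the end, and 16, 38 and 33 had one further in. Just outside the window, cysteine at position 4 with none inside was found in 17, 25 and 15 clonotypes, and cysteine 3 residues before the end in 0, 1 and 2.

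**Figure D4:**
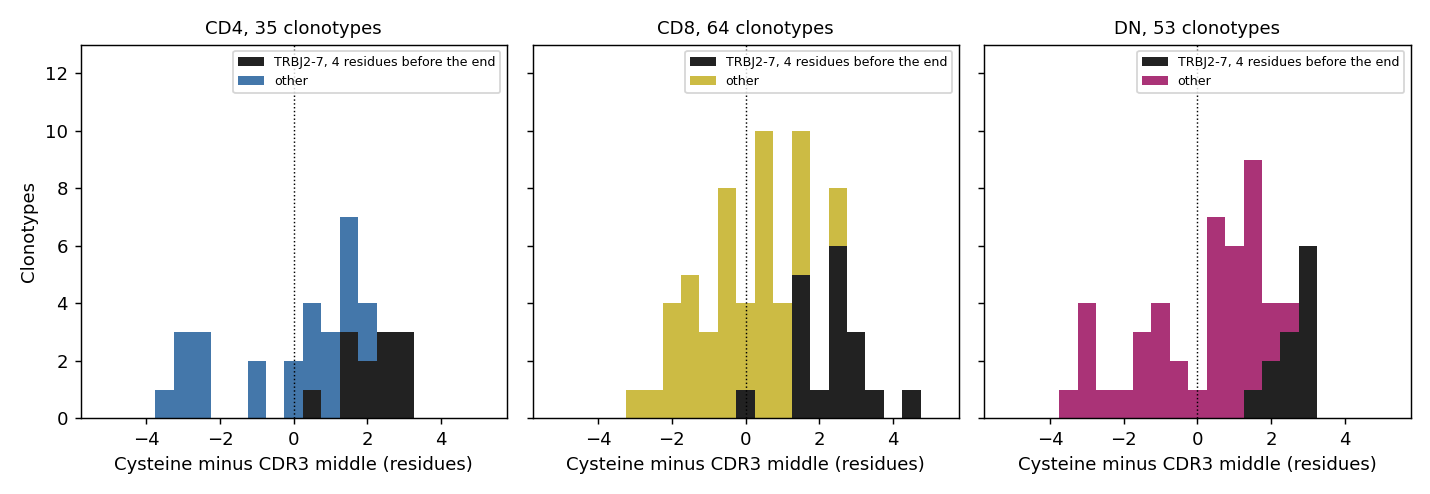
Position of the interior cysteine relative to the middle of the CDR3, in residues (negative towards the V gene, positive towards the J gene), as numbers of clonotypes in each library, for the 152 CDR3s of at most 20 residues. Black marks cysteines 4 residues before the end of a TRBJ2-7 CDR3, which lie mostly 1.5 to 3 residues past the middle, and the other cysteines spread over both sides.

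Glycine came before the cysteine and glutamate after it more often than any other residue. Glycine preceded 13 of 37 interior cysteines in CD4, 23 of 66 in CD8 and 24 of 53 in DN T cells. Glutamate followed 12, 19 and 16 of them. Glycine was also the commonest interior residue of all in-frame clonotypes, present in 78.4%, 78.4% and 78.8% of them. Most of these glutamates followed a cysteine 4 residues before the end of a TRBJ2-7 CDR3, a group of 12, 18 and 12 members. The flanking residues were not compared with those at the same places in other clonotypes. The run Gly-Cys-Glu stood in 7, 11 and 9 members. Among them were 2 clonotypes shown above, that of TRBV5 with its cysteine at position 11 and that of TRBV31. The codon was TGT in 26 of 37 (70.3%), 39 of 66 (59.1%) and 32 of 53 (60.4%) and TGC in the rest.

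TRBJ2-7, the last gene of the second J cluster, was the J gene with the most members in every library. It was used by 13 of 36 members in CD4 (36.1%, 22.5 to 52.4%), 32 of 65 in CD8 (49.2%, 37.5 to 61.1%) and 19 of 53 in DN T cells (35.8%, 24.3 to 49.3%). Among other in-frame clonotypes it took 17.2%, 21% and 23.4%. Members used it 2.35-fold more often than others in CD8 T cells (adjusted exact p = 7.6e-06, Fisher's exact test over 12 J genes). The ratio was 2.10 in CD4 (adjusted exact p = 0.0754) and 1.53 in DN T cells (adjusted exact p = 0.346), neither past the threshold. In CD8 T cells 16.7% of J genes passed, the other being TRBJ1-1, which none of 65 members used against 8.63% of others (adjusted exact p = 0.0369). In CD4 and DN T cells 0% of J genes passed, and 1 J gene in each had an unadjusted p under 0.05.

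The TRBJ2-7 members mostly had the cysteine at 1 place. In 12 of 13, 18 of 32 and 12 of 19 of them it stood 4 residues before the end, where TRBJ2-7 CDR3s usually have the tyrosine of the J gene (69.5% of all of them over the 3 libraries). The codon there was TAT in 4721, 11074 and 6598 clonotypes of CD4, CD8 and DN T cells. It was TGT in 12, 17 and 12, or 2.54, 1.54 and 1.82 for each 1000 with TAT. The synonymous change from TAT to TAC was found in 6, 16 and 11. When the window was narrowed by 1 residue at each end, which leaves this place out, the ratio of TRBJ2-7 use was 0.363 in the CD4, 1.38 in the CD8 and 0.775 in the DN library, and none passed.

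V gene use of the members was spread over 16, 18 and 19 genes in the CD4, CD8 and DN libraries. TRBV13-2, a gene of the Vβ8 family, had the most members in CD4 (5, or 13.9%) and in DN T cells (8, or 15.1%). TRBV1 and TRBV13-3 had 9 each in CD8 T cells (13.8%). The same genes made up 12.9% and 12.9% (TRBV13-2) and 11.5% and 14.9% (TRBV1 and TRBV13-3) of the other clonotypes of those libraries. Of 17, 19 and 16 V genes with at least 100 in-frame clonotypes, 0% passed in any library, and 0, 1 and 0 had an unadjusted p under 0.05. These genes covered 27 of 36, 61 of 65 and 49 of 53 members.

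Genes below that number of clonotypes held the remaining members. TRBV22, which RefSeq lists as a pseudogene, had the highest share among these: 4 of its 8 in-frame clonotypes in CD4, 1 of 5 in CD8 and 2 of 7 in DN T cells had an interior cysteine. All 7 were written TGT, 6 of them at position 5, and each had 1 read. Over the 3 libraries TRBV21 had 3 members among 43 in-frame clonotypes, TRBV15 4 among 141 and TRBV24 1 among 73. TRBV23 had 0 among 123. These rare V genes were singled out after their values were seen and were not tested. When only CDR3s of at most 20 residues from first cysteine to last phenylalanine, with V genes of at least 100 in-frame clonotypes in every library, were kept, 26, 59 and 49 members remained. The DN to CD8 ratio was then 1.66 and the DN to CD4 ratio 2.04 (adjusted exact p = 0.0107).

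D gene calls did not set the members apart. TRBD1 was called in 15, 19 and 21 of them in the CD4, CD8 and DN libraries and TRBD2 in 13, 26 and 23, while 8, 20 and 9 had no D gene. Of these 3 calls 0% passed in any library, and 1, TRBD1 in CD8 T cells (29.2% of members against 41.7% of others), had an unadjusted p under 0.05 (adjusted exact p = 0.132). CDR3s of 56 and 58 residues, both of TRBV16 and TRBJ2-7 with 1 read, were the only members with 2 interior cysteines and the only ones longer than 20 residues, and they too were picked out after their values were seen. They share a run of 144 bases, which is longer than the whole CDR3 of any other member. Part of the run looked like an oligo of the library kit, and its origin was not tested. Without them, 35, 64 and 53 members remained, and the DN to CD8 ratio of clonotype shares was 1.67 (adjusted exact p = 0.0176) and the DN to CD4 ratio 1.64 (adjusted exact p = 0.0371).

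Few members were found in more than 1 library. Of 149 distinct members, 145 (97.3%) were in 1 library, 3 in 2 libraries and 1 in all 3, while 92.3% of all distinct in-frame clonotypes were in 1 library. In DN T cells 3 of 53 members (5.66%) were also in CD8 T cells, against 19.6% of other clonotypes (adjusted exact p = 0.0499, Fisher's exact test over 6 ordered pairs). The share was lower among members in the other 5 ordered pairs too, and none of these passed, with adjusted p from 0.378 to 0.767. Clone size moved with this difference. Among clonotypes with at least 2 reads the DN to CD8 overlap was not lower for members (ratio 1.26, adjusted exact p = 0.663), and among those with 1 read it was 0 of 45 for members and 8.71% for others.

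Single-read members often had a larger clonotype 1 base away. Such a neighbour, equal in V gene, J gene and length and with more reads in that library, was found for 8 of 29 single-read members in CD4 T cells (27.6%, 14.7 to 45.7%). It was found for 11 of 57 in CD8 (19.3%, 11.1 to 31.3%) and for 24 of 45 in DN T cells (53.3%, 39.1 to 67.1%). Of other single-read clonotypes, 11.1%, 11.4% and 13.5% had one. The difference passed in DN (adjusted exact p = 8.49e-10) and CD4 T cells (adjusted exact p = 0.0177) but not in CD8 T cells (adjusted exact p = 0.0898, Fisher's exact test over 3 libraries, a comparison chosen after the values were seen).

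A 1-base neighbour without the interior cysteine can differ only within the cysteine codon, so the place of the change follows from the rule for members. Of the members, 11, 21 and 25 in the CD4, CD8 and DN libraries had a neighbour of any size that lacked the cysteine through a change of that codon. The neighbour's residue was tyrosine in 21 of these 57, glycine in 12, arginine in 9, tryptophan in 7, serine in 5 and phenylalanine in 3. From neighbour to member, 21 changes were A-to-G, 17 were G-to-T and 9 were C-to-T. The pair with the largest such neighbour in each library is shown, the member before its neighbour, with the codon that differs in capitals.
CD4, TRBV13-1 and TRBJ2-1, member with 1 read: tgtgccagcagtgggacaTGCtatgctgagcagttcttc
CD4, its neighbour with 19 reads, change G19T: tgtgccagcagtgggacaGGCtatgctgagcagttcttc
CD8, TRBV19 and TRBJ2-7, member with 1 read: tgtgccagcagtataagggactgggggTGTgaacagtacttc
CD8, its neighbour with 8 reads, change A29G: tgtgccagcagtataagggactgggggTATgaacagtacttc
DN, TRBV13-2 and TRBJ2-7, member with 1 read: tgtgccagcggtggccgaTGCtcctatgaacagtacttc
DN, its neighbour with 25 reads, change A19T: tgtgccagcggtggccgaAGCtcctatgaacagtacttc

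In these changes the neighbour's base comes first and positions count from 1 at the first base of the CDR3. Of the 23 members with at least 2 reads in their library, 3 had any 1-base neighbour there. The TRBV5 clonotype had none in any library, and the TRBV1 clonotype had only its synonymous version, in DN T cells.

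CDR3s that kept the reading frame but held a stop codon in the same window give a comparison, since they encode no receptor. There were 118, 159 and 151 of them in the CD4, CD8 and DN libraries, and 78%, 88.1% and 77.5% had 1 read. A larger 1-base neighbour in frame was found for 25% (17.3 to 34.7%), 12.1% (7.72 to 18.6%) and 28.2% (20.8 to 37%) of the single-read ones. In CD4 and CD8 T cells the intervals of cysteine and stop clonotypes overlapped widely, and in DN T cells the interval of cysteine lay above that of stop codons, with no test made.

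**Figure D5:**
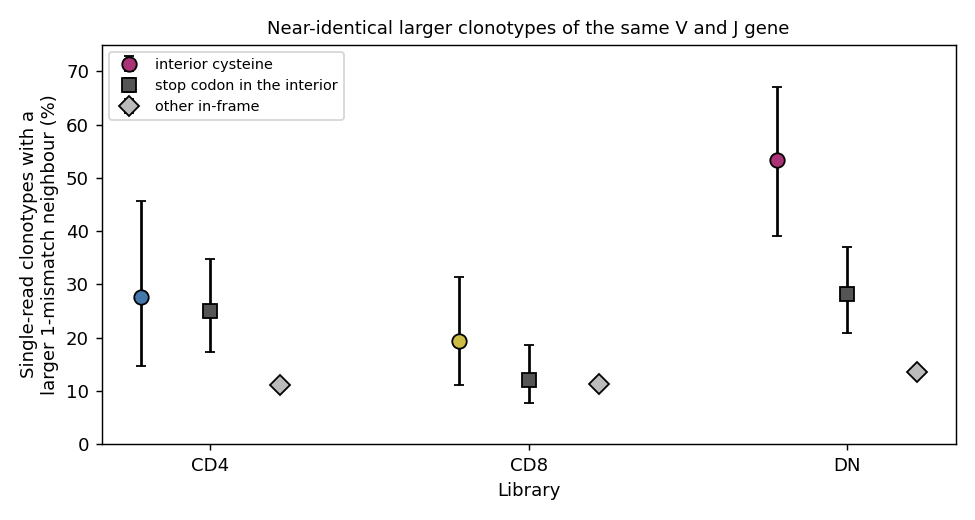
Percent of single-read clonotypes of each library with a larger clonotype 1 base away (same V gene, J gene and length), for clonotypes with an interior cysteine (circles), CDR3s with an interior stop codon (squares) and other in-frame clonotypes (diamonds), with 95% Wilson intervals. The DN cysteine clonotypes stand highest at 53.3%, and the other in-frame clonotypes lie between 11.1% and 13.5%.

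The share of members moved with these neighbours. Clonotypes were merged into their largest 1-base neighbour of equal V gene, J gene and length if it had at least 10 times their reads. This left 33, 65 and 46 members in the CD4, CD8 and DN libraries. The DN to CD8 ratio of clonotype shares fell from 1.65 to 1.45 (adjusted exact p = 0.107). Merging already at 2 times the reads left 28, 54 and 29 members and a ratio of 1.08 (adjusted exact p = 0.908). The part that copying errors had in the single-read members was not tested.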

How the data were processed

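The mRNA of each sorted subset was made into a library with the Takara SMARTer Mouse TCRα/β kit, and the authors aligned the reads, assembled clonotypes and exported them with MiXCR. Its version, settings and gene reference are not given in the sources used here. The deposited tables give each clonotype a count of reads, not normalized, and its fraction of the reads of its table, with best V, D and J gene and CDR3. Whole-table depth was 133770, 150976 and 194375 reads in the CD4, CD8 and DN libraries, of which TCR beta sequences in frame without a stop held 126738, 145225 and 185135.

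In-frame CDR3s with a cysteine from position 5 to length minus 4 were counted with Python 3.11.15 (SciPy 1.17.1, statsmodels 0.14.6). Shares were compared by two-sided Fisher's exact tests with Benjamini-Hochberg adjustment within each stated family, at 0.05, and have 95% Wilson intervals. The interval of a ratio of shares is the usual one on the log scale. A share of 0 was bounded by 3 counts. Reads carry no molecular identifiers, so tests and intervals on reads take PCR copies as independent. Intervals, bounds and p-values cover at most counting error. V, D and J calls with at least 100 in-frame clonotypes were tested.

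Named clonotypes are the 5 largest of a library, those within its 100 largest in-frame clonotypes and those found in all 3 libraries. Members tied at 2 reads in 1 library are given by their counts only. Named V and J genes are those with the most members and those past the threshold. Named residues are cysteine, tryptophan and those with the highest and lowest ratio of each pair. The members, lists and tests were chosen with earlier results of these data known. The scripts were tested on simulated data. Gene types come from RefSeq (GRCm38.p6). The alternatives were a minimum of 2 reads, merging by amino acid sequence or by 1 mismatch, a common depth, another window, clonotypes of 1 library, a common V gene and length mix, lengths of 12 to 16, all TCR beta clonotypes as denominator, exactly 1 cysteine, and leaving out the largest clonotypes. Merging at 2 times the reads, the restriction to usual CDR3s and the out-of-frame comparison were chosen after seeing the data. TCR alpha clonotypes, of which 78, 93 and 73 were in frame, held none with an interior cysteine and were left out.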

Additional observations from a re-analysis of the deposited data

Results flagged for a closer look

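CDR3s out of reading frame, which take no part in the comparisons above, held cysteine codons more often. In CDR3s of at least 45 bases, read in the frame of the V gene, TGT or TGC stood at codons 5 to 8 in 7 of 836 out-of-frame clonotypes of CD4 (0.837%, 0.406 to 1.72%), 6 of 966 of CD8 (0.621%, 0.285 to 1.35%) and 8 of 1036 of DN T cells (0.772%, 0.392 to 1.52%). In-frame clonotypes had them in 5 of 14486 (0.0345%), 12 of 27079 (0.0443%) and 9 of 16932 (0.0532%). The ratios of 24.3, 14 and 14.5 passed Fisher's exact test in all 3 libraries (adjusted exact p = 2.62e-06, 2.14e-05 and 2.72e-06). The values were singled out because they lie in sequences outside the main measurement and above the bound set by a count of 0. Among V genes with at least 100 in-frame clonotypes in every library, 3 of 693, 2 of 839 and 2 of 887 out-of-frame clonotypes had such a codon. The ratios were then 31.2 (adjusted exact p = 0.0027), 6.34 (0.0572) and 6.33 (0.0572), so that CD4 T cells alone passed. V gene use moved with this result, and its part was not tested.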

How the results depend on the processing

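Of 170 tested values recomputed under the alternatives, 131 kept both direction and call. Of 9 recomputed with no test, at a common depth or a common V gene and length mix, 8 kept their direction within 1.5 times of the value, and 56 of 60 counts of calls stayed within 1.5 times. The share of clonotypes in DN over CD8 passed at first, and lost the call with at least 2 reads (1.43), with clonotypes 1 base from a 10 times larger one merged into it (1.45) and likewise at 2 times (1.08). DN over CD4 missed the threshold at first, and passed with the window narrowed by 1 residue at each end (2.23), in clonotypes of 1 library (1.78), at lengths of 12 to 16 (1.78), with exactly 1 cysteine (1.64) and in usual CDR3s (2.04). That ratio came nearest to 1 with at least 2 reads (1.07) and with merging at 2 times the reads (1.13), where it did not pass. CD4 over CD8, never past the threshold, turned below 1 with both kinds of merging (0.958 and 0.956), the narrower window (0.787), usual CDR3s (0.817) and a common V gene and length mix (0.893). For reads, DN over CD8 turned below 1 with the narrower window (0.613), without the 100 largest clonotypes (0.655) and without the largest member (0.584), each of which leaves the TRBV5 clonotype out in DN T cells. DN over CD4 became 1.47, 0.983 and 1.04 under the same 3, and CD4 over CD8 missed the threshold in clonotypes of 1 library (0.755). With at least 2 reads, where 7 or 8 members a library remain, the central share was 2.0 for DN over CD8 and 1.14 for CD4 over CD8, and the overlap with another library was higher for members in each ordered pair: 1.75 (CD4 in CD8), 1.74 (CD4 in DN), 2.33 (CD8 in CD4), 1.80 (CD8 in DN), 1.62 (DN in CD4) and 1.26 (DN in CD8), none past the threshold. DN in CD8 also lost its call with merging (0.330) and the narrower window (0.309). The single-read ratio of CD4 lost its call with the narrower window (1.33). The J genes past the threshold in CD8 were 1 with at least 2 reads, 1 at lengths of 12 to 16 and 0 with the narrower window, and in CD4 1 with merging. TRBJ2-7 turned below 1 with the narrower window in CD4 (0.363) and DN (0.775). The out-of-frame ratio missed the threshold for common V genes in CD8 (6.34) and DN (6.33). Where no value shows the cause, it was not tested. No paired analysis was possible because each subset had 1 library and the labels give no replicate numbers.

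The comparisons of position and gene use rest on all 154 members, of which 23 had at least 2 reads.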
